A study of Mus musculus with 23 samples.

Results

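Genes of serine synthesis and of the amino acid stress response were followed through recovery of the mouse pancreas from caerulein pancreatitis. The 10 genes, chosen by name out of 18512 symbols counted in every library, were Phgdh, Psat1, Psph, Shmt2, Asns, Cth, Atf4, Ddit3, Trib3 and Chac1. RNA-seq had been performed on the head of the pancreas of C57BL/6 mice of 6 to 8 weeks. The baseline group held 8 mice without injury (4 female, 4 male). The other groups had received caerulein at 50 µg/kg in 8 hourly intraperitoneal injections on each of 2 consecutive days, and were collected at day 7 (4 female, 4 male) or day 14 (3 female, 4 male), with day 0 set 24 hours after the last injection. No saline-injected group was analysed here, so injection and injury cannot be told apart.

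Serine is made from a glycolytic intermediate in consecutive steps: PHGDH oxidizes 3-phosphoglycerate, PSAT1 transfers an amino group from glutamate, and PSPH removes the phosphate. SHMT2 then splits serine into glycine and a unit for folate metabolism in mitochondria. When amino acids run short or unfolded proteins build up in the endoplasmic reticulum, kinases phosphorylate the translation factor eIF2, general translation slows and the ATF4 protein is made in larger amounts; ATF4 activates genes for amino acid synthesis and uptake, for tRNA charging and for the stress regulators DDIT3 (CHOP) and TRIB3. Acinar cells of the pancreas make large amounts of secreted protein and draw heavily on amino acids. Because ATF4 is controlled mainly at translation, the RNA level of Atf4 need not follow its protein.

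ATF4 acts through C/EBP-ATF response elements, and their core was therefore searched for in the promoters of these genes. The letters TGATGNAA (TTNCATCA on the other strand) were looked for on both strands from 250 bases before to 50 bases after the RefSeq start on GRCm38.p6. The 9 genes with an entry have 10 promoters, and 3 of these held a match, each of a different gene, against 3.97% of 32851 promoters. The 3 stretches of 30 bases are given in the direction of the gene, with the match in capitals.

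Asns: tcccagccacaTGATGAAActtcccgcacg

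Chac1: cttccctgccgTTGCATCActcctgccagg

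Trib3: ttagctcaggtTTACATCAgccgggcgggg

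The Asns stretch lies at chr6:7693214-7693243 on the minus strand, with the match at positions -23 to -16 before the start. The Chac1 stretch, at chr2:119351038-119351067 on the plus strand, holds the match on the opposite strand at -193 to -186. The Trib3 stretch, at chr2:152344028-152344057 on the minus strand, holds the match after the start, at 15 to 22, also on the opposite strand. The longer endoplasmic reticulum stress element (ERSE) was in 0 of the 10 promoters listed for these 9 genes and in 0.119% of all promoters. Positions are counted from the RefSeq start. In the GENCODE models used for the gene positions given with the results, the Asns match lies inside the gene and the Trib3 match before its start, whereas the Chac1 match lies before the start in both. Cth has no promoter entry. These matches are descriptions of letters; no binding was measured.

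Between 7059890 and 9567446 counts were available per mouse, with medians of 7952514 at baseline, 8658869 at day 7 and 8962855 at day 14. Differential expression was tested with edgeR over 12195 genes with sex as a covariate; DEGs had to reach a 1.5-fold difference as well as an adjusted p of 0.05 or less. The tissue carried its label: the 20 most abundant genes, largely those of digestive enzymes, held 69.4% of the counts at baseline, 60.3% at day 7 and 65.02% at day 14. The 18 acinar genes examined all had an adjusted p of 0.05 or less at day 7, with lower levels (median -0.69 on the log2 scale), and 11 were DEGs. Their summed normalized count in baseline mice was 4813010 to 6992110, in day 7 mice 2893130 to 4321280 and in day 14 mice 4580700 to 5281230. None of these markers was at 0. The 18 genes do not stand for every acinar gene. The paper reports several trypsinogen genes, expressed by acinar cells, as up-regulated after injury and others as down-regulated. The acinar index used below was built from the 18 genes alone. Of 10 macrophage genes 9 were higher DEGs at day 7, and of 9 fibroblast genes 7. In the same order of groups, the summed macrophage count was 476 to 1792, 1144 to 2672 and 789 to 1530, and that of the fibroblast genes was 2861 to 5626, 5351 to 10168 and 4544 to 6388. In whole tissue, fewer cells of a type and less RNA per cell cannot be told apart, which bears on every difference given here.

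The level of the 10 genes in the uninjured pancreas spanned a wide range. Per kilobase of exon, Asns, which makes asparagine from aspartate and glutamine, stood highest with a normalized count of 1320 ± 164 (SD, n = 8). Phgdh followed with 666 ± 80.4 and Atf4 with 440 ± 47.0, and none of these 3 overlapped its neighbour in this order. Psat1 (147 ± 33.3), Chac1 (136 ± 42.6), Cth (110 ± 33.8) and Shmt2 (75.8 ± 5.82) came next, and each overlapped the following one among the 4. Psph (16.1 ± 2.94), Ddit3 (11.5 ± 4.67) and Trib3 (9.92 ± 2.595) were lowest and also overlapped. Within the serine pathway the first enzyme was thus well above the second, and the last was near the level of the stress regulators. The spread between baseline mice was unequal as well. The coefficient of variation was 7.68% for Shmt2, 12.1% for Phgdh and 12.5% for Asns, and 22.6% for Psat1, 30.7% for Cth, 31.4% for Chac1 and 40.7% for Ddit3. For Ddit3, which had 8 to 61 raw counts per mouse over the study, and Trib3, which had 11 to 46, counting error enters this spread.

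**Figure D1:**
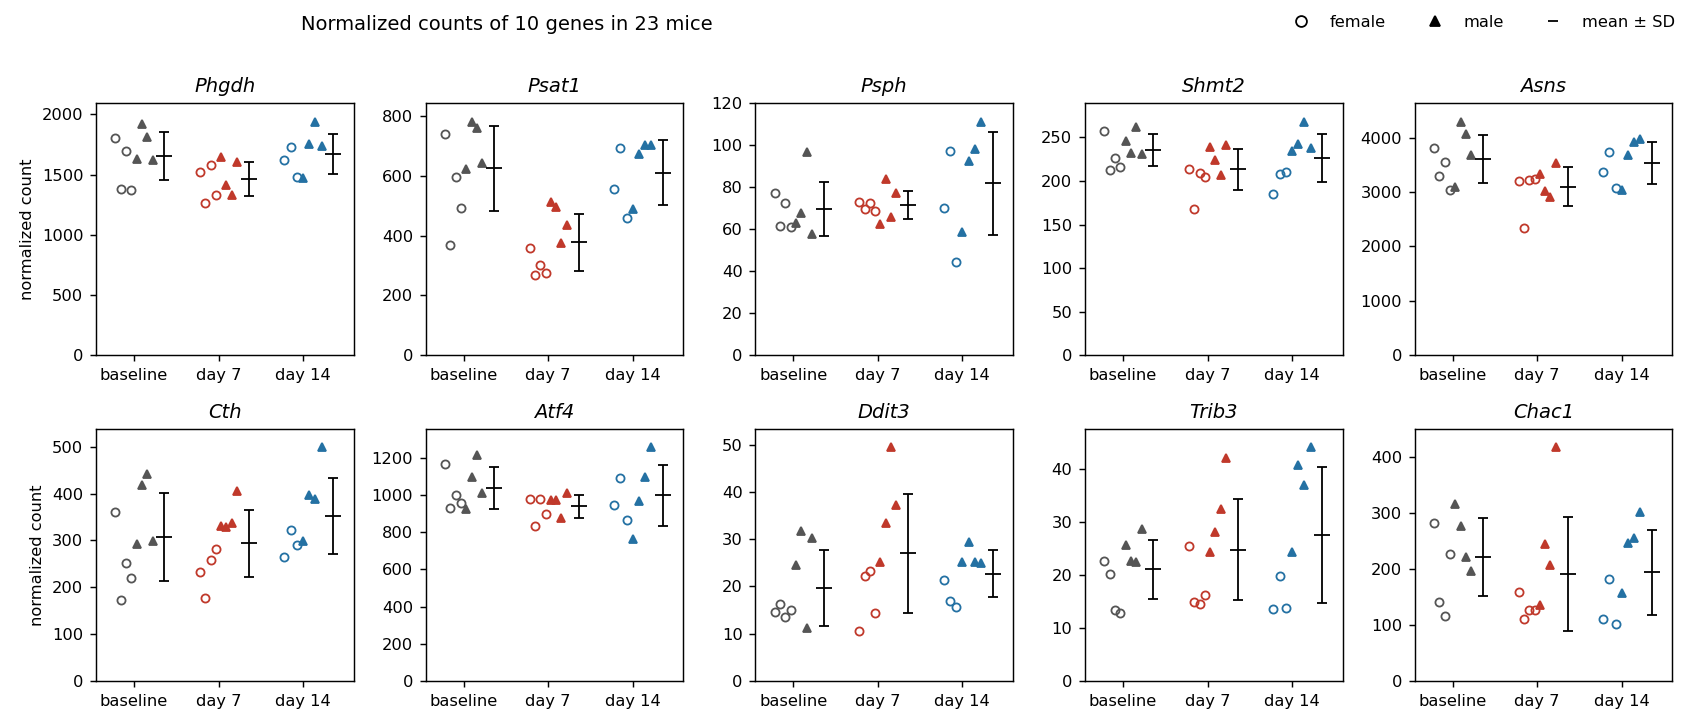
Normalized counts (y axis, linear from 0, own scale per gene) of the 10 genes in each mouse at baseline, day 7 and day 14; open circles are females, filled triangles are males, and bars show the mean ± SD of the group. Psat1 is the gene whose day 7 mice sit low, at 268 to 514 against 369 to 781 at baseline.

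To see whether the pathway as a whole was altered after injury, each gene was compared between time points. At day 7, 1 of the 10 genes was a DEG, Psat1, which was lower. Over all genes tested, 5.13% were DEGs at day 7, 3.82% higher and 1.31% lower, and 18.6% passed by the adjusted p alone. The median log2 fold change of the 10 genes at day 7 was -0.15, against 0.02 for all genes, with 3 positive and 7 negative estimates. At day 14 none of the 10 differed from baseline, where 0.787% of all genes were DEGs: the smallest adjusted p was 0.577, none had an unadjusted p under 0.05, and DESeq2 also called 0. Between day 7 and day 14 Psat1 was again the single DEG, now higher, against 0.377% of all genes (0.205% higher). With the sexes pooled, in none of the 3 comparisons did the groups of mice separate completely for any of the 10 genes. Over all genes they did so for 1.16% (higher) and 1.59% (lower) at day 7, for 0.435% and 0.23% at day 14 and for 0.41% and 0.139% between day 7 and day 14.

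**Figure D2:**
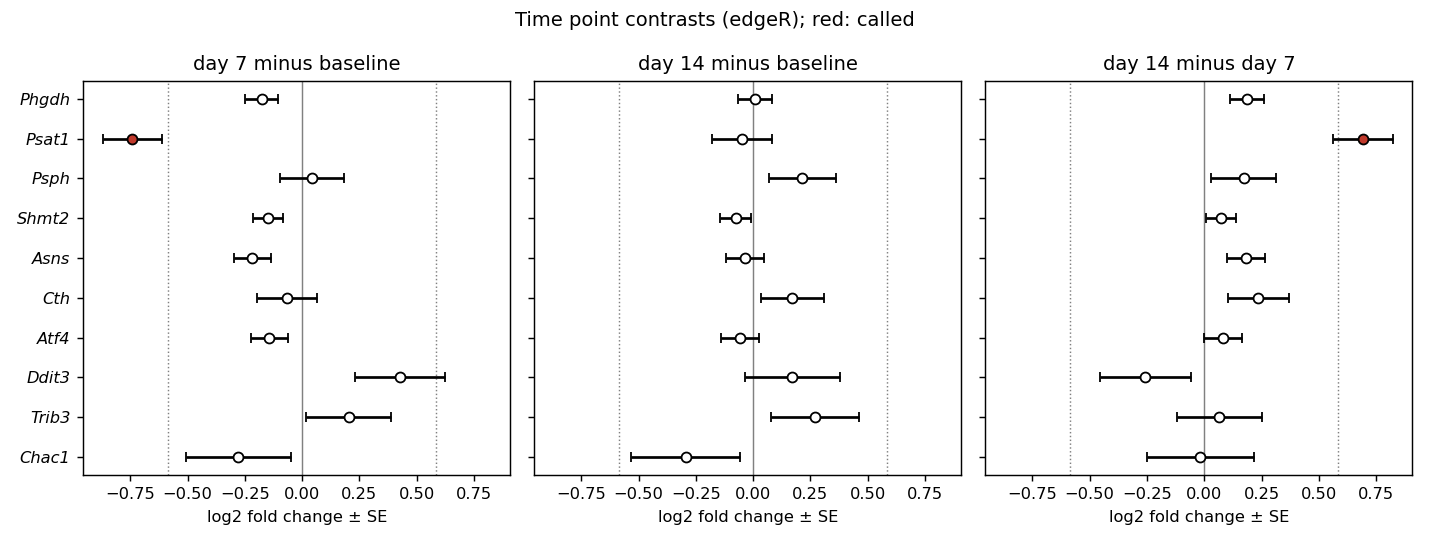
Log2 fold changes ± SE of the 10 genes from edgeR for the 3 comparisons of time points; filled red points are DEGs and dotted lines mark the fold change threshold. Psat1 is the single DEG, at -0.74 for day 7 minus baseline and 0.69 for day 14 minus day 7, and no gene is one for day 14 minus baseline.

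Psat1 (chr19:15904678-15947337, minus strand, GRCm38) encodes the transaminase of the second step. Its normalized count had a lowest value of 369, a median of 632 and a highest value of 781 in the 8 baseline mice. At day 7 these values were 268, 366 and 514, and in the 7 mice at day 14 they were 458, 673 and 703. Of the 8 day 7 mice, 4 lay below every baseline mouse, whereas the remaining ones fell within the baseline range. The 4 were the females, at 268 to 358 against 369 to 740 in baseline females. The remaining ones were the males, at 374 to 514 against 621 to 781 in baseline males. The overlap was thus between day 7 males and baseline females. Of the 7 day 14 mice, 5 lay above every day 7 mouse. The log2 fold change at day 7 was -0.74 ± 0.13 (SE, n = 8 and 8), a fold change of 0.598 with a 95% interval of -0.99 to -0.49 on the log2 scale (adjusted p = 0.000376). From day 7 to day 14 it rose by 0.69 ± 0.13 (fold change 1.62, adjusted p = 0.00630). This second call was lost with total count scaling (0.45 ± 0.12, short of the fold change threshold), with the acinar index as a covariate (0.50 ± 0.22, adjusted p = 0.194), in females alone (0.92 ± 0.22, adjusted p = 0.358) and in males alone (0.51 ± 0.12, adjusted p = 0.0650). Day 14 differed from baseline by -0.05 ± 0.13, with an interval of -0.31 to 0.21. The decrease at day 7 was -0.88 ± 0.18 in females and -0.63 ± 0.18 in males, and these did not differ by the interaction of sex with time (0.25 ± 0.25, adjusted p = 0.948). With the mean log2 CPM of the acinar genes as a covariate the day 7 estimate was -0.42 ± 0.31 (adjusted p = 0.422); that index was 14.2 to 14.8 at baseline and 13.5 to 14.1 at day 7, so time and index cannot be told apart. Scaling by total counts moved the median of all genes at day 7 to 0.47, and the Psat1 estimate to -0.28 ± 0.12, still the lowest of the 10 but short of the fold change threshold.

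The other enzymes of the pathway did not pass the test. Phgdh (chr3:98313170-98339990, minus strand), the first enzyme, had a normalized count of 1369, 1665 and 1921 (lowest, median, highest) at baseline, 1269, 1471 and 1647 at day 7 and 1470, 1726 and 1941 at day 14. Its day 7 mice lay in the lower part of the baseline range, 3 of them below every baseline mouse. The log2 fold change was -0.18 ± 0.07 at day 7 (adjusted p = 0.0886) and 0.01 ± 0.08 at day 14. Of the 75-base windows of Phgdh transcripts, 64.2% occurred in no other gene, the processed pseudogene Gm7901 sharing most of the rest, so its counts of uniquely mapped fragments are less certain. Psph (chr5:129765558-129787449, minus strand), the phosphatase, was estimated at 0.04 ± 0.14 on the log2 scale at day 7 and at 0.21 ± 0.15 at day 14. Its 7 mice at day 14 ranged from 44.3 to 111, on both sides of the baseline range of 57.5 to 96.8. Shmt2 (chr10:127517123-127522444, minus strand) had a median of 232 at baseline, 211 at day 7 and 234 at day 14. Its log2 fold change at day 7 was -0.15 ± 0.06 (adjusted p = 0.105), with an interval of -0.28 to -0.02. Exons of Psph and Shmt2 overlap those of Cct6a and Ndufa4l2 on the opposite strand; the library kit was stranded, and the strand setting of the counting is not given in the sources used here.

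Since Psat1 fell and Phgdh did not pass the test, the genes were compared within each library, where no scaling factor enters. These ratios were chosen after their values were seen. Psat1 counts were 37.3% ± 4.94 (SD, n = 8) of Phgdh counts at baseline, 25.7% ± 5.58 (n = 8) at day 7 and 36.3% ± 3.63 (n = 7) at day 14. The day 7 ratios were mostly under the baseline ones, although the highest of them, 34.9%, exceeded the lowest at baseline, 26.7%. The log2 ratio differed by -0.56 between day 7 and baseline (two-sided exact permutation p = 0.00202, adjusted p = 0.00653 over 9 tests) and by 0.52 between day 14 and day 7 (exact permutation p = 0.00218, adjusted p = 0.00653). Against Asns, Psat1 gave 17.2% ± 2.77, 12.2% ± 2.72 and 17.1% ± 1.34, with an exact permutation p of 0.00528 at day 7 (adjusted p = 0.0119) and 0.00186 between day 14 and day 7 (adjusted p = 0.00653). Phgdh in percent of Asns was 46.0% ± 3.27, 47.4% ± 3.87 and 47.4% ± 1.92, and its log2 ratio differed by 0.04 at day 7 (exact permutation p = 0.447, adjusted p = 0.671).

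**Figure D3:**
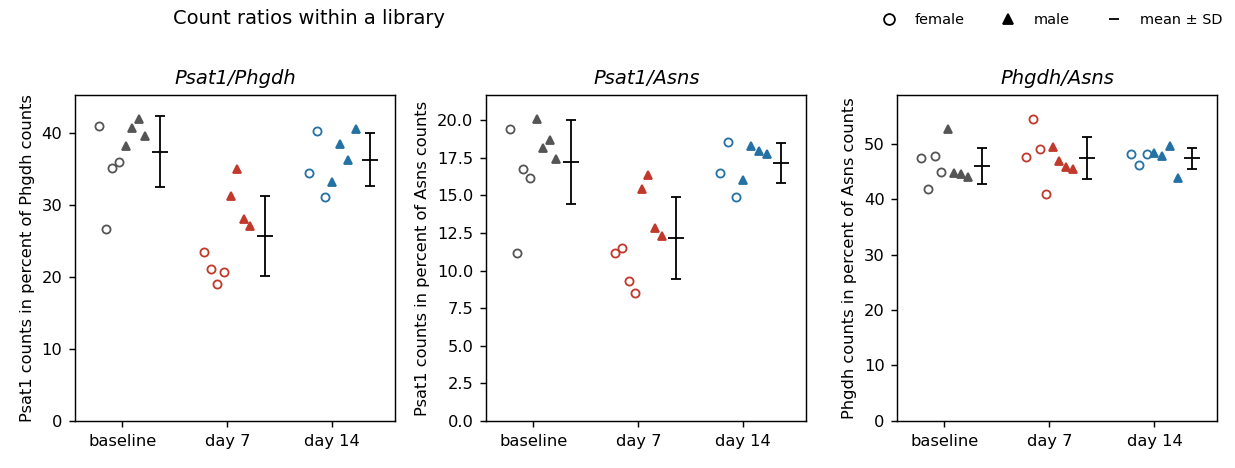
Counts of Psat1 in percent of Phgdh and of Asns, and of Phgdh in percent of Asns, in each library by time point; open circles are females, filled triangles are males, and bars show the mean ± SD. The ratios with Psat1 drop at day 7, to 25.7% of Phgdh from 37.3%, while Phgdh stays at 46.0% to 47.4% of Asns on average.

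Asns (chr6:7675169-7693254, minus strand) came closest to the threshold among the remaining genes. It had normalized counts of 3046, 3625 and 4298 at baseline, 2331, 3215 and 3537 at day 7 and 3040, 3675 and 3968 at day 14. The low end of day 7 was set by 1 female, mouse 10. The log2 fold change at day 7 was -0.22 ± 0.08 (adjusted p = 0.0586 in edgeR). In DESeq2 the estimate was also -0.22, and it passed by the adjusted p (0.0322) without reaching the fold change threshold. Without mouse 10 it was -0.17 ± 0.08 in edgeR (adjusted p = 0.121). It turned positive with the acinar index as a covariate (0.41 ± 0.12, adjusted p = 0.0317), where time and index cannot be told apart, and when scaled by total counts (0.23 ± 0.05, adjusted p = 0.000248). Cth (chr3:157894248-157925077, minus strand), which releases cysteine from cystathionine, had medians of 296, 305 and 323, and its groups overlapped widely. Its log2 fold change was -0.07 ± 0.13 at day 7 (interval -0.33 to 0.19) and 0.17 ± 0.14 at day 14 (interval -0.10 to 0.44).

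Atf4 itself (chr15:80255184-80257541, plus strand), the transcription factor, had normalized counts of 925, 1005 and 1217 at baseline, 832, 972 and 1012 at day 7 and 763, 969 and 1257 at day 14. The day 14 mice covered a wider range than either other group. The log2 fold change was -0.14 ± 0.08 at day 7 (adjusted p = 0.220) and -0.06 ± 0.08 at day 14 (adjusted p = 0.841). Ddit3 (chr10:127290774-127296288, plus strand), the CHOP transcription factor, was the gene with the highest estimate at day 7. Its counts were 11.2, 15.7 and 31.7 at baseline, 10.6, 24.2 and 49.5 at day 7, and 15.7, 24.9 and 29.5 at day 14. Among the day 7 mice 3 lay above every baseline mouse and 1 below. The log2 fold change was 0.43 ± 0.20 (adjusted p = 0.134), with an interval of 0.04 to 0.82. Exons of Ddit3 overlap those of Mars and Gm4189 on the opposite strand. Trib3 (chr2:152337422-152344032, minus strand), a pseudokinase that restrains ATF4, had medians of 22.5, 25.0 and 24.3, with log2 estimates of 0.20 ± 0.19 for day 7 and 0.27 ± 0.19 for day 14. Chac1 (chr2:119351229-119354381, plus strand), which degrades glutathione, had a median of 224 at baseline, 147 at day 7 and 182 at day 14. A day 7 male reached 417, the highest value of any mouse. The log2 fold change was -0.28 ± 0.23 (interval -0.73 to 0.17, adjusted p = 0.425). The estimates for Phgdh, Shmt2, Asns, Cth, Atf4 and Chac1 at day 7 turned positive when libraries were scaled by total counts, under which Ddit3 (0.89) and Trib3 (0.65) became DEGs.

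Other genes of the same pathways were counted in the same fit. Among 28 other ATF4 target genes, the day 7 estimate was positive for 5 and negative for 23 (median -0.21 on the log2 scale); 1 was a higher DEG and 3 were lower DEGs. Nupr1, a stress-induced chromatin protein, fell by 0.62 on the log2 scale at day 7 (SE 0.11, adjusted p = 0.000521) and rose by 0.63 ± 0.12 from day 7 to day 14 (adjusted p = 0.00532). Its normalized count was 6316 ± 1298 (SD, n = 8) at baseline, 4064 ± 361 (n = 8) at day 7 and 6526 ± 1799 (n = 7) at day 14. Fgf21, a secreted metabolic hormone, fell by 1.24 ± 0.24 (adjusted p = 0.00107), from 203 ± 63.2 to 85.9 ± 47.4, and stood at 129 ± 47.2 at day 14. Slc7a3, a cationic amino acid transporter, fell by 0.61 ± 0.14 (adjusted p = 0.00241). Atf5, a transcription factor related to Atf4, had an adjusted p of 0.00272 at day 7 without reaching the fold change threshold (-0.55 ± 0.12) and was a higher DEG from day 7 to day 14 (0.64 ± 0.12, adjusted p = 0.00695). Atf3 was the higher DEG (0.94 ± 0.33, adjusted p = 0.0481), at 4.5 to 12.9 normalized counts per baseline mouse.

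Of 18 genes of methionine, cysteine and glutathione metabolism 1 was a lower DEG at day 7. This was Mat1a, which makes the methyl donor S-adenosylmethionine, with normalized counts of 950 ± 192 at baseline, 584 ± 137 at day 7 and 957 ± 224 at day 14. Its log2 fold change was -0.70 ± 0.11 at day 7 (adjusted p = 9.34e-05) and 0.68 ± 0.11 from day 7 to day 14 (adjusted p = 0.00154). Psat1, Nupr1 and Mat1a were thus each a lower DEG at day 7 and a higher DEG from day 7 to day 14. Cbs, which forms the substrate of CTH, had a fold change under the threshold (-0.44 ± 0.08, adjusted p = 0.000546). Of 21 further genes of serine, glycine and folate metabolism 0 were DEGs in any comparison in edgeR or DESeq2, although 4 had an adjusted p of at most 0.05 at day 7, among them Aldh1l1 (-0.39 ± 0.09, adjusted p = 0.00379) and the mitochondrial folate enzyme Mthfd2 (-0.33 ± 0.09, adjusted p = 0.0101); 7 had an unadjusted p under 0.05. Of 12 genes of asparagine, aspartate, glutamine and glutamate metabolism Glul, glutamine synthetase, was a higher DEG (0.78 ± 0.26, adjusted p = 0.0405). Aldh4a1 (-0.31 ± 0.06, adjusted p = 0.000947) and Asrgl1 (-0.44 ± 0.11, adjusted p = 0.00528) passed by the adjusted p alone. The lists for eIF2 and its kinases (12 genes), cytosolic aminoacyl-tRNA synthetases (20 genes) and the ATF6 and XBP1 branch of the unfolded protein response (17 genes) had 0 DEGs at day 7 in edgeR and in DESeq2, with medians of -0.04, -0.03 and -0.01 and with 6, 5 and 7 genes at an unadjusted p under 0.05. The 2 genes with the smallest p in each of these lists passed by the adjusted p alone in edgeR, as did 18.6% of all genes. They were Eif2s1 (0.29 ± 0.07, adjusted p = 0.00653) and Eif2ak4 (-0.32 ± 0.09, adjusted p = 0.0107) for eIF2. For the synthetases they were Dars (0.31 ± 0.07, adjusted p = 0.00162) and Mars (-0.22 ± 0.07, adjusted p = 0.0242). For the third list they were Edem1 (-0.39 ± 0.08, adjusted p = 0.000712) and Sel1l (-0.42 ± 0.09, adjusted p = 0.00152). Of all 12195 genes, 3925 had an unadjusted p under 0.05 at day 7.

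For Trib3, Ddit3, Cth, Chac1 and Shmt2 the estimated difference between the sexes exceeded the size of each of the estimates over time. Across all mice, with time point as a covariate, all 10 had a positive male minus female estimate, Atf4 turning to -0.0089 when scaled by total counts. The median log2 difference was 0.29, against -0.00031 for all genes. After adjustment 3 of them passed at 0.05, where 0.574% of all genes did and 0.279% did so with higher levels in males. Of the 10 genes, 6 had an unadjusted p under 0.05, and 9.0% of all genes had one. The 3 were the stress regulators Trib3 and Ddit3 and the transsulfuration enzyme Cth. Clock genes moved with sex at the later time points. The mean log2 CPM of Ciart, Tef, Per3, Nr1d2, Nr1d1 and Dbp minus that of Cry1, Clock, Npas2 and Arntl, an index built after the data were seen, was -1.03 ± 0.95 in baseline females and -1.28 ± 1.28 in baseline males. It was -1.32 ± 1.19 and 1.04 ± 1.73 at day 7, and -2.44 ± 0.32 and 0.41 ± 0.47 at day 14. With this index as a covariate the estimates were 0.71 ± 0.19 for Trib3, 0.63 ± 0.20 for Ddit3 and 0.55 ± 0.14 for Cth, and none of the 10 genes passed (adjusted p of 0.152, 0.329 and 0.130). Fewer of all genes differed by sex with it as well, as given below with the other settings. At day 14 the index ran from -2.66 to -2.07 in females and from 0.09 to 1.09 in males, so there sex and index cannot be told apart. The hour of collection of each mouse is not given in the sources used here.

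Trib3 had normalized counts of 12.9, 14.97 and 25.5 (lowest, median, highest) in the 11 females and 22.4, 28.5 and 44.1 in the 12 males. All 12 males lay above the female mean of their own time point, and at day 14 all 4 males lay above all 3 females. The log2 difference was 0.85 ± 0.15 (fold change 1.80, adjusted p = 0.00459). Ddit3 had counts of 10.6, 15.7 and 23.2 in females and 11.2, 27.4 and 49.5 in males. Of the males, 11 lay above the female mean of their time point, the exception being a baseline male that held the lowest value of its group. The difference was 0.78 ± 0.16 (fold change 1.72, adjusted p = 0.0188). Cth had counts of 174, 257 and 361 in females and 293, 363 and 499 in males, and all 12 males exceeded the female mean of their time point. The difference was 0.51 ± 0.11 (fold change 1.43, adjusted p = 0.0295), and it missed the threshold in 11 of the 23 fits that left out a mouse, whereas Trib3 and Ddit3 passed in all 23. Without a filter on low counts Cth also missed it (0.51 ± 0.12, adjusted p = 0.0574). Chac1 had an estimate of similar size with a larger error, 0.73 ± 0.19 (adjusted p = 0.116), and counts of 102, 127 and 283 in females and 135, 245 and 417 in males. Psat1 (0.38 ± 0.11, adjusted p = 0.147) and Shmt2 (0.19 ± 0.05, adjusted p = 0.130) did not pass, nor did Psph, Phgdh, Asns and Atf4, at 0.14, 0.11, 0.11 and 0.07.

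The sex difference was then compared between time points. At baseline the male minus female difference in mean log2 CPM was 0.51 for Trib3, 0.56 for Ddit3 and 0.55 for Cth (two-sided exact permutation p of 0.0857, 0.143 and 0.114), and none of the 10 genes had every male above every female, as 1.41% of all genes did. At day 7 every male lay above every female for Psat1, Cth and Ddit3, as for 1.79% of all genes, with differences of 0.59, 0.57 and 0.99 (exact permutation p = 0.0286 each, the smallest that 4 against 4 mice allow; adjusted p = 0.214 over 30 tests). At day 14 this held for Shmt2, Ddit3 and Trib3, as for 3.98% of all genes, with differences of 0.29, 0.50 and 1.10 (exact permutation p = 0.0571 each, the smallest that 3 against 4 mice allow). The interaction of sex with time passed for 1 of 12933 genes (0.00773%) at day 7 and for 0 at day 14, and for none of the 10. Of 28 other ATF4 target genes 23 had a positive male minus female estimate, as had 6082 of all 12195 genes. Their median log2 difference was 0.17, 16 had an unadjusted p under 0.05 and 0 passed after adjustment in edgeR (3 in DESeq2), the smallest adjusted p being 0.0526 for Atf5. Of 20 aminoacyl-tRNA synthetases 18 had a positive estimate, with a median of 0.09, 8 with an unadjusted p under 0.05 and 0 after adjustment in either tool. Mat1a was higher in males (0.43 ± 0.09, adjusted p = 0.0239). Macrophage and fibroblast genes were near 0 (medians 0.04 and -0.03), and 17 of 18 acinar genes had a positive estimate (median 0.12, 0 passing).

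**Figure D4:**
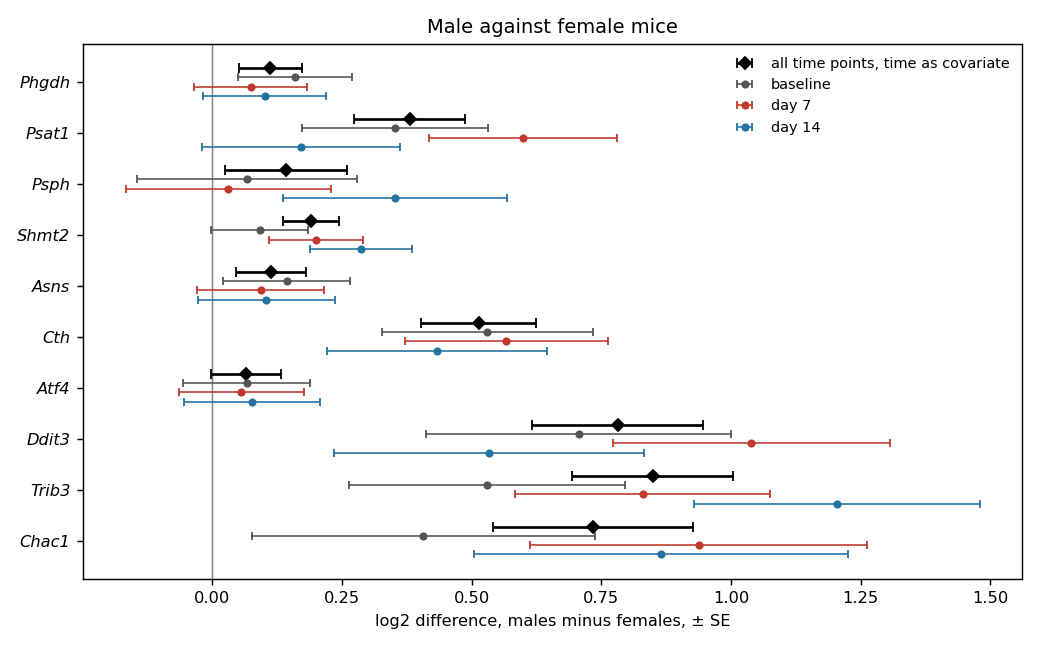
Log2 difference of males minus females ± SE for the 10 genes from edgeR, over all mice with time point as a covariate (black diamonds) and within each time point (circles). All 10 diamonds lie above 0, from 0.07 for Atf4 (-0.0089 with total count scaling) to 0.85 for Trib3, and the time points overlap within their errors for most genes.

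It was also examined whether the 10 genes varied together between mice of one time point. With the mean of each time point subtracted from log2 CPM, 43 of the 45 pairs were positively correlated over the 23 mice, with a median Pearson r of 0.58; the median r of the 10 genes with all genes tested was -0.01. Of the 45 pairs, 33 had an adjusted permutation p of at most 0.05, and 20 with libraries scaled by total counts. Phgdh and Asns had r = 0.84 and rho = 0.87 (permutation p of 2e-05 each, adjusted p = 0.00018), and r was 0.83 without the 2 mice farthest from the median. Psat1 and Cth had r = 0.83 and rho = 0.84 (permutation p of 1e-05 each, the smallest that 100000 permutations can give; adjusted p = 0.00018), and r was 0.74 without 2 mice. Asns and Atf4 had r = 0.81 and rho = 0.88 (permutation p = 1e-05 each), and 0.84 without 2 mice. Trib3 and Chac1 had r = 0.83 and rho = 0.85 (permutation p = 2e-05 each), and 0.78 without 2 mice. Because the sexes differed, the mean of each sex within its time point was subtracted too. The median r was then 0.51, and 25 pairs passed, of which 24 were among the 33. Phgdh and Asns stayed at 0.81, Asns and Atf4 at 0.81, Psat1 and Cth at 0.70 and Trib3 and Chac1 at 0.66.

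Ddit3 differed from the other genes in these correlations. With the time point removed its r ranged from -0.07 with Atf4 to 0.55 with Trib3, and the pairs with Trib3 and Chac1 were the ones that passed. With sex removed as well, r was -0.02 with Trib3, and the pair with Shmt2 passed with a negative sign (r = -0.58, rho = -0.58, permutation p of 0.00453 and 0.00831, adjusted p for r = 0.0127; r was -0.61 without the 2 mice farthest from the median).

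**Figure D5:**
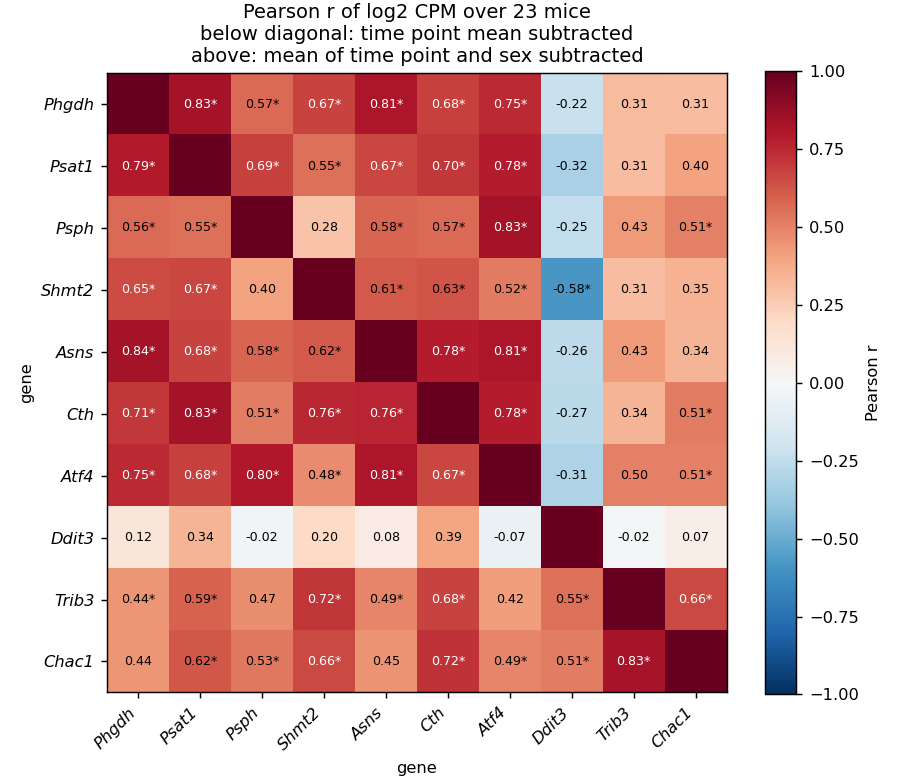
Pearson r of log2 CPM between pairs of the 10 genes over 23 mice, below the diagonal with time point means subtracted and above it with means of sex and time point subtracted; asterisks mark an adjusted permutation p of at most 0.05. The 6 genes of amino acid metabolism and Atf4 form a block of positive values, and the Ddit3 row and column hold the values nearest 0 or below it.

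The 10 genes were then set against the acinar index and the clock index (40 relations, adjusted together). With the time point removed, Asns correlated with the acinar index at r = 0.84 and rho = 0.82 (permutation p = 1e-05 for r, adjusted p = 0.000267), and at 0.73 without the 2 mice farthest from the median. Phgdh followed with r = 0.76 and rho = 0.80 (adjusted p = 0.000267, 0.68 without 2 mice). Shmt2 (r = 0.59, rho = 0.59), Cth (r = 0.57, rho = 0.53) and Atf4 (r = 0.52, rho = 0.64) also passed, at an adjusted p of 0.0157, 0.0354 and 0.0122, with r of 0.39, 0.39 and 0.47 without 2 mice. With sex removed as well, Asns (r = 0.83), Phgdh (0.72) and Atf4 (0.51) passed, and Shmt2 (r = 0.62, adjusted p = 0.0713) and Cth (r = 0.53, adjusted p = 0.0760) no longer did by r, although both did by rho (adjusted p = 0.0404 each). Psat1 did not pass, with r = 0.40 and rho = 0.45 (adjusted p = 0.215), nor did Ddit3 (r = 0.11). The values of a mouse share 1 library and 1 scaling factor, so these relations are not free of scaling. With the clock index Ddit3 had r = 0.57 and rho = 0.57 (adjusted p = 0.0354) and Trib3 r = 0.58 and rho = 0.61 (adjusted p = 0.0380). Without the 2 mice farthest from the median index, r was 0.43 for Ddit3 and 0.49 for Trib3. With sex removed as well these were 0.32 and 0.09, and neither passed (adjusted p of 0.417 and 0.734).

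Among all genes tested, those whose log2 CPM followed the 10 genes most closely over the 23 mice, with time point means subtracted, are named as a description. For Asns these were Sars (r = 0.93), Xpot (0.92) and Gars (0.92), which charge tRNA or carry it out of the nucleus. For Atf4 they were Eprs (0.91) and Nars (0.89), further aminoacyl-tRNA synthetases. Phgdh was followed most closely by Gcat (0.92), a mitochondrial enzyme of threonine and glycine metabolism, and Cth by the mitochondrial chaperone Hspa9 (0.91), Gars (0.86) and Mthfd2 (0.85). For Psat1 the closest were the ribosomal protein gene Rpl38 (0.83) and Cth (0.83), and for Psph they were Atf4 (0.80) and Nolc1 (0.78). Shmt2 was closest to Tbl3 (0.81). Chac1 was closest to Trib3 (0.83), Fut1 (0.82), Stc2 (0.80) and the amino acid transporter Slc7a5 (0.78), and Trib3 to Phf10 (0.86) and Chac1. For Ddit3 the closest was Eif2s3y (0.74), a gene of the Y chromosome, whose level separates the sexes. Eif2s3y was also among the 5 genes closest to Trib3, with r = 0.81.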

How the data were processed

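RNA-seq of the head of the pancreas was available for 23 mice. The deposited values are raw gene counts, 1 per symbol. Before counting, the authors had removed ribosomal RNA from total RNA, used a stranded kit, and sequenced paired reads of 75 bases. Per the submitters' processing notes and the methods, reads were examined with FastQC, trimmed with Trim Galore and cutadapt, aligned to mm10 with STAR 2.5.2a, and uniquely mapped fragments were counted with featureCounts. Groups and sexes came from the sample titles and labels. Mouse numbers were used to name samples.

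Scaling was by TMM, with factors of 0.770 to 1.40. In R 4.3.3, edgeR 4.0.16 with limma 3.58.1 was run with filterByExpr by group, glmQLFit with robust estimation and glmQLFTest, on all 23 mice with time point and sex (12195 genes), or with 6 groups of sex and time point for the interaction (12933 genes). P-values are two-sided and Benjamini-Hochberg adjusted over the genes tested. DEGs reached a 1.5-fold difference and an adjusted p of 0.05 or less; sex and the interaction were judged by the adjusted p alone. The SE was derived from the F statistic (size of the log2 fold change over the root of F), and 95% intervals are 1.96 SE on either side. Normalized counts are counts divided by the scaled library size, times the mean scaled library size; log2 CPM has a prior count of 2. Single values were compared with exact two-sided permutation tests over mice, and correlations with 100000 permutations of mice within time points. Indices are mean log2 CPM of the named genes. Positions are those of GENCODE vM21 on GRCm38, the assembly of mm10; promoters are those of RefSeq (GRCm38.p6). Further steps used scipy 1.17.1, numpy 2.4.6, pandas 2.3.3 and, for plots, matplotlib 3.10.9 in Python 3.11.15.

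The 10 genes, the lists of other genes, the clock index and the alternatives were chosen with earlier results of these data known, so none is independent support. From each pathway list, DEGs in any comparison of time points were named (at most 6, by p at day 7). Where a list held fewer than 2 DEGs, the 2 genes with the smallest p at day 7 were named as well. Alternatives were DESeq2 1.42.0, its size factors in edgeR, total counts with and without the 20 most abundant genes, no filter, at least 10 counts in every mouse, no sex covariate, 1 sex, only the mice compared, no fold change threshold, an acinar or a clock index as a covariate, and leaving out each mouse. Covariates of indices, the alternatives for sex, the ratios within a library and correlations with sex removed were added after seeing the data. Simulated counts in which 200 genes were altered were put through the same tests: for day 7 against baseline, 63.3% of genes changed by a fold of 1.5 and 87.8% of those changed by a fold of 2 were recovered at the adjusted p among 12102 genes. For day 14 against baseline these shares were 71.4% and 79.6%, and for day 14 against day 7 they were 67.3% and 65.3%. The fold change threshold was not applied. Apart from the altered genes all simulated libraries shared 1 mean profile, so the shift in composition seen in the data was absent. Counts limit precision for genes such as Ddit3, with 8 to 61 counts per mouse.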

Additional observations from a re-analysis of the deposited data

Results flagged for a closer look

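On log2 CPM, 30 groups of values were examined (10 genes in 3 groups of mice). Of these, 2 held a value whose gap to its neighbour exceeded Dixon's 95% critical value, which chance exceeds in about 1 of 20 groups. Both were the lowest values at day 7 and came from the same female, mouse 10. Shmt2 had a normalized count of 168 in this mouse, against 204 to 241 in the other 7. Its gap on log2 CPM was 0.539 of the range (critical value 0.526). Asns had 2331 against 2914 to 3537, with a gap on log2 CPM of 0.535 of the range. On the normalized counts themselves neither gap reached the critical value. The library of mouse 10 also had the highest TMM factor of the 23, 1.40, and the lowest acinar index, 13.5. Their part in the 2 low values was not tested. Without mouse 10 the log2 fold change at day 7 was -0.12 for Shmt2 and -0.17 for Asns, and Psat1 was still the single DEG of the 10 genes.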

How the results depend on the processing

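The other settings, apart from leaving out each mouse, kept every mouse, 1 sex or only the mice compared. Of 109 estimates of the 10 genes at day 7 under them, 93 kept their direction and their side of the threshold. Of 99 at day 14 against baseline 91 did, of 109 between day 14 and day 7 88 did, and of 69 for sex 62 did. With libraries scaled by total counts the median of all genes became 0.47 at day 7, 0.22 at day 14 and -0.25 between day 14 and day 7, and the share of DEGs that were higher at day 7 went from 74.4% to 99.4% (85.5% without the 20 most abundant genes), at day 14 from 88.5% to 98.2%, and between day 14 and day 7 from 54.3% to 2.96% (31.1% without those 20 genes). Under it the DEGs numbered 3695, 448 and 473 in the 3 comparisons, in place of 626, 96 and 46, and the 10 genes held 2 DEGs at day 7 (Ddit3 and Trib3) and 0 between day 14 and day 7. Estimates at day 7 turned to 0.27 (Phgdh), 0.30 (Shmt2), 0.23 (Asns), 0.39 (Cth), 0.31 (Atf4) and 0.16 (Chac1), each below the shifted median. Those at day 14 turned to 0.17 (Psat1), 0.14 (Shmt2), 0.19 (Asns) and 0.16 (Atf4). Those between day 14 and day 7 turned to -0.048 (Phgdh), -0.071 (Psph), -0.16 (Shmt2), -0.048 (Asns), -0.15 (Atf4) and -0.17 (Trib3). The sex estimate of Atf4 turned to -0.0089, 127 genes differed by sex in place of 70, and 20 pairs of genes were correlated in place of 33. Without the 20 most abundant genes Cth was at 0.012 at day 7.

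With the acinar index as a covariate there were 1102 DEGs at day 7 and 266 between day 14 and day 7, with 0 of the 10 genes in either. Estimates turned to 0.32 (Phgdh), 0.13 (Shmt2), 0.41 (Asns), 0.60 (Cth) and 0.24 (Atf4) at day 7, and to -0.10 (Phgdh), -0.092 (Shmt2), -0.18 (Asns), -0.15 (Cth), -0.14 (Atf4) and -0.24 (Trib3) between day 14 and day 7. In females alone there were 235, 32 and 5 DEGs and 0 of the 10 genes between day 14 and day 7. Day 14 estimates turned to 0.046 (Psat1) and -0.13 (Trib3), and those between day 14 and day 7 to -0.014 (Psph), 0.024 (Ddit3), -0.18 (Trib3) and 0.0083 (Chac1). Psat1 was still at 0.92 there (adjusted p = 0.358). In males alone 12 DEGs were found at day 14, 0 of the 10 genes was a DEG between day 14 and day 7 (Psat1 0.51, adjusted p = 0.0650), and day 14 estimates turned to -0.027 (Phgdh) and 0.0063 (Shmt2). Without a sex covariate Chac1 turned to 0.024 between day 14 and day 7. A minimum of 10 counts in every mouse left 348 DEGs at day 7 and 30 between day 14 and day 7, and Ddit3 was not tested there. Without a fold change threshold 2264, 192 and 157 genes passed.

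For sex, DESeq2 gave 116 genes and 5 of the 10 (Psat1 and Chac1 added), the clock index as a covariate 21 and 0, and the fold change threshold 28 genes. The cause of these changes was not tested, except that smaller fits hold fewer mice. Leaving out each mouse gave 509 to 815 DEGs at day 7, 64 to 104 at day 14 and 22 to 57 between day 14 and day 7 (23 without mouse 15, 22 without mouse 22 and 29 without mouse 24). Of the 10 genes 1, 0 and 1 were DEGs each time, with Psat1 at -0.81 to -0.67 and 0.61 to 0.76. Estimates near 0 changed sign in some of these fits: Psph (-0.0030 to 0.11) and Cth (-0.13 to 0.025) at day 7, Phgdh (-0.022 to 0.044), Psat1 (-0.14 to 0.027) and Asns (-0.073 to 0.0043) at day 14, and Trib3 (-0.020 to 0.16) and Chac1 (-0.11 to 0.18) between day 14 and day 7. For sex 43 to 83 genes passed (43 without mouse 3 or mouse 16), and 2 to 5 of the 10, with 5 (Psat1 and Chac1 added) without mouse 1. No paired analysis was possible because the mouse numbers are not shared between groups.

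Bulk tissue, 7 or 8 mice per time point and low counts for Ddit3, Trib3 and Psph limit what can be seen, and exact tests within a time point cannot give a p below 0.0286.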

Other observations

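Markers of other cells that the tissue holds were counted in the same edgeR fit. At day 7, 4 of 8 islet genes were higher DEGs (median 0.96 on the log2 scale), as were 2 of 7 duct genes (median -0.03) and 2 of 8 genes of proliferating cells (median 0.65). Of 5 lymphocyte genes with enough counts none was a DEG (median 1.18; 0 with an unadjusted p under 0.05, and 0 of the 3 with an adjusted p in DESeq2), nor was any of 6 endothelial genes (median -0.20; 2 with an unadjusted p under 0.05 and 0 in DESeq2) or of 5 adipocyte genes (median 0.66; 0 and 0). None of 6 genes of the intestinal epithelium had enough counts, although their summed normalized count reached 173 in a day 14 mouse, against at most 12.9 at baseline and 18.7 at day 7. At day 14 against baseline 3 of 9 fibroblast genes were DEGs. Their part in the differences of the 10 genes was not tested.

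Promoters of the other lists were searched for the same core letters TGATGNAA. They were present for 9 of 24 other ATF4 target genes with a promoter entry, for 5 of 13 aminoacyl-tRNA synthetases, for 3 of 14 acinar genes, for 1 of 15 genes of methionine, cysteine and glutathione metabolism, for 1 of 10 of asparagine, aspartate, glutamine and glutamate metabolism, and for 0 of 17 genes of serine, glycine and folate metabolism, 0 of 14 genes of the ATF6 and XBP1 branch and 0 of 10 genes of eIF2 and its kinases. These are counts of genes, some with several promoters; of all single promoters of this length 3.97% held the letters, and a match is not evidence of a bound site.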
